A study of Arabidopsis thaliana with 72 samples.

Results

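APL3 (AT4G39210) encodes a large subunit of ADP-glucose pyrophosphorylase, and it was followed as 1 probe set among the 22746 non-control probe sets of the array, over all 24 groups of the series. The given annotation pairs the probe set with this gene and with no other. The series holds 72 Affymetrix ATH1 arrays, 3 per group, of root or shoot RNA from the Wassilewskija accession of Arabidopsis thaliana. Each group combines a tissue, a chamber pressure of 10 or 97 kPa, and 1, 3, 6, 12, 48 or 72 h in the chamber.

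All plants were wild type, 10 days old and grown on plates in constant light. Chambers at 97 kPa, the local ambient pressure, held 21 kPa oxygen, and chambers at 10 kPa held 2.1 kPa oxygen. Carbon dioxide was 0.05 kPa in both and nitrogen made up the rest, so low total pressure and low oxygen cannot be told apart in any comparison below. Each array is the RNA of 1 tube of about 12 pooled plants, fixed in RNAlater and then divided into roots and whole aerial parts, and the 3 arrays of a group come from 3 chambers run side by side. The comparison of pressures asks how the transcriptome of each organ responds to a low-pressure atmosphere over time.

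ADP-glucose pyrophosphorylase makes ADP-glucose, the glucosyl donor for starch synthesis in plastids, and its reaction is the main point at which starch synthesis is controlled. The enzyme is built of small and large subunits. In Arabidopsis the large subunits are encoded by APL1, the main form in leaves, and by APL2, APL3 and APL4, which are associated more with sink tissues. APL3 is known in Arabidopsis as a gene whose transcript rises when leaves are supplied with sugar, which the label of the gene refers to. Sugar was not measured here, so that part of the label was not tested.

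Some facts of the arrays bear on every value below. Signals are the authors' MAS5 intensities, brought to a trimmed mean of 500 on each array, and probe sets differ in their brightness, so levels are compared between groups and never between genes. Summed signals of 5 photosynthesis genes were 94398 to 163799 on shoot arrays and 1986 to 17908 on root arrays, and those of 6 root genes were 604 to 2724 in shoots and 23149 to 45772 in roots, so both tissue labels fit their markers. The array numbers in the labels fall into runs that follow pressure and time: at 6, 12 and 48 h every 10 kPa array was in one run and every 97 kPa array in another, and at 72 h 1 array of each pressure and tissue was in a run of its own. The ratio of 3′ to 5′ signal of the GAPDH control, which rises as RNA is degraded, was higher at 10 kPa in late shoots, at 83.5 ± 55.2 against 16.1 ± 8.18 at 48 h and 46.4 ± 8.94 against 13.3 ± 1.91 at 72 h (SD, n = 3). In whole-organ RNA, a change in the share of cells that express a gene and a change in RNA per cell cannot be told apart.

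APL3 was higher at 10 kPa than at 97 kPa in shoots from 6 h onwards, by 2.43- to 4.35-fold, and its signal was too low in roots for a test. At 6 h the shoots gave signals of 254, 216 and 433 at 10 kPa and of 62.5, 56.3 and 58.8 at 97 kPa. Every 10 kPa array lay above every 97 kPa array, and the 97 kPa arrays lay close together (group means 301 ± 116 and 59.2 ± 3.12, SD, n = 3). On the scale of log2(signal + 8.90), where the pseudocount pulls low values together, the difference was 2.12 (SE 0.40, 95% interval 1.30 to 2.95), a 4.35-fold difference with adjusted p = 0.000364 (limma, Benjamini-Hochberg over 15794 probe sets). That was the 54th largest increase among the probe sets tested in shoots at 6 h, of which 11.7% were called in either direction and 5.78% higher. Probe sets whose 3 values at 10 kPa all exceeded the 3 at 97 kPa made up 17% of those tested.

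At 12 h the signals were 115, 318 and 230.1 at 10 kPa and 85.3, 48.8 and 78.2 at 97 kPa. The groups again did not overlap, and 1 of the 10 kPa arrays was lower than the other two. The log2 difference was 1.45 (SE 0.40, interval 0.63 to 2.28, adjusted p = 0.0209), with 7.41% of probe sets called and 13.9% separated in this direction. Leaving out replicate 2 or 3 at 10 kPa or replicate 2 at 97 kPa ended the call, with log2 differences of 1.14, 1.37 and 1.24 and adjusted p of 0.154, 0.0767 and 0.123.

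At 48 h the 10 kPa shoots held the highest single APL3 signal of the series, 557, beside 151 and 286, while the 97 kPa shoots gave 97.6, 37.2 and 103. All 10 kPa arrays were above all 97 kPa arrays, with the widest spread of any shoot group (332 ± 207 against 79.3 ± 36.6, SD, n = 3). The log2 difference was 1.87 (SE 0.40, interval 1.04 to 2.69, adjusted p = 0.000887). At this time 23.7% of probe sets were called and 12% were separated upwards.

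At 72 h the signals were 277, 419 and 201 at 10 kPa and 146, 88.2 and 110.4 at 97 kPa. The groups did not overlap, and the 97 kPa mean of 115 ± 29.2 was the highest of the 97 kPa shoot groups. The log2 difference was 1.28 (SE 0.40, interval 0.46 to 2.10, adjusted p = 0.0218), where 19.8% of probe sets were called and 15.7% were separated upwards. It was 1.00 (adjusted p = 0.184) without the arrays numbered apart, and it also lost its call without 10 kPa replicate 1 or 2 or 97 kPa replicate 2 or 3, with adjusted p of 0.0511, 0.122, 0.0968 and 0.0534.

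**Figure D1:**
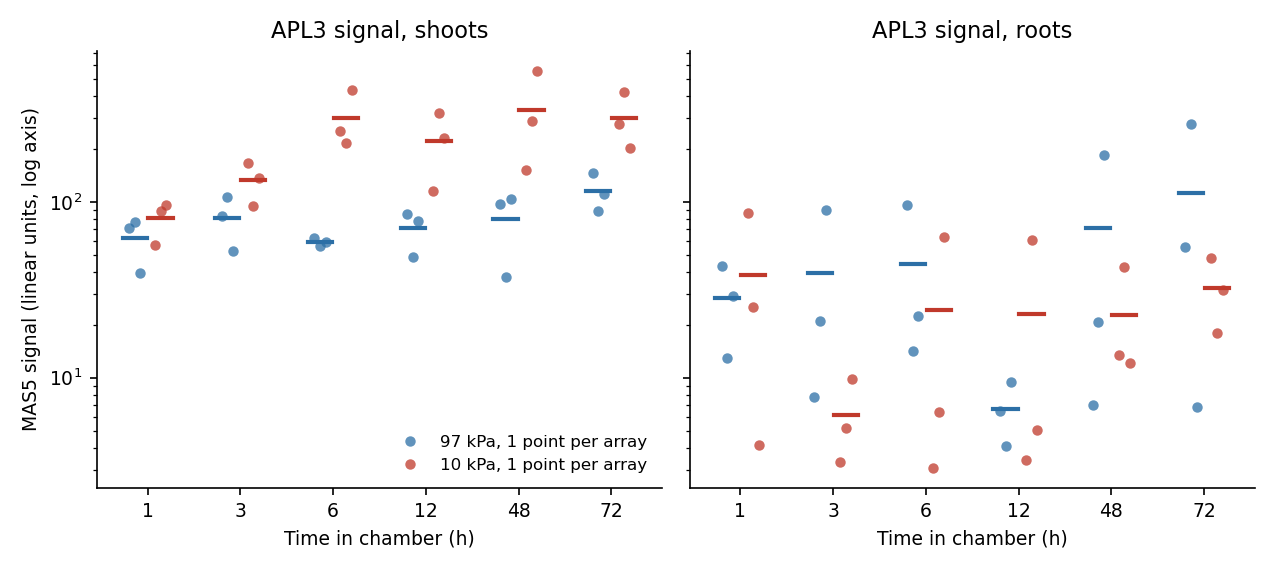
APL3 signal on each array (MAS5 units on a log axis) by hours in the chamber, with shoots at left and roots at right, 97 kPa in blue and 10 kPa in red, 1 point per array and a bar at each mean of 3. In shoots the red points lie above the blue points of the same time at each time from 6 h onwards, and in roots the colours overlap at all 6 times.

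In the first hours the shoot groups overlapped. At 1 h the signals were 56.9, 88.7 and 96.0 at 10 kPa and 70.6, 76.9 and 39.4 at 97 kPa, a log2 difference of 0.34 (interval -0.48 to 1.17, adjusted p = 0.747) when 4.36% of probe sets were called. At 3 h they were 166, 94.9 and 136 against 83.2, 106 and 52.8, with a difference of 0.67 (interval -0.15 to 1.49, adjusted p = 0.420) and 5.4% of probe sets called. Neither difference passed the test, and both intervals include values above 1. Over the 6 times together the shoot difference was 1.29 (SE 0.17, interval 0.95 to 1.63, adjusted p = 1.1e-07), the 101st largest increase, where 36.2% of the probe sets tested were called in either direction and 18.6% were called higher.

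APL3 entered the shoot test mainly through the group in which it was high. It reached the 40th percentile of its array, the level required in 3 arrays, on 15 of 18 shoot arrays at 10 kPa and on 2 of 18 at 97 kPa. With all probe sets tested and no such filter, the adjusted p were 0.000706, 0.0356, 0.00169 and 0.0361 at 6, 12, 48 and 72 h.

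The runs of array numbers set a limit on the shoot result. Within the run that holds both pressures at 72 h, 1 shoot array gave 419 at 10 kPa and 1 gave 110.4 at 97 kPa, a log2 difference of 1.84. With the run as a block, which rests on that pair to link the runs, the differences at 6, 12, 48 and 72 h were larger, at 2.97, 2.3, 2.71 and 1.84, but with SE of 0.95, 0.95, 0.95 and 0.70 and adjusted p of 0.161, 0.363, 0.159 and 0.144 none was called. At 1 and 3 h no run held both pressures, so run and pressure cannot be told apart there.

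The 3′ to 5′ ratio moved with the late shoot result but less with the one at 6 h, when it was 20.7 ± 5.62 at 10 kPa and 13.6 ± 0.80 at 97 kPa, or at 12 h, when it was 20.1 ± 6.57 and 20.0 ± 5.65. With each array's mean log2 of such ratios over the plant control genes as a covariate, APL3 differed by 2.39, 1.64, 2.67 and 1.87 at 6, 12, 48 and 72 h, with adjusted p of 0.000227, 0.0108, 0.0118 and 0.0265. In shoots at 48 h that mean log2 ratio ran from 4.64 to 5.22 at 10 kPa and from 3.64 to 4.09 at 97 kPa. At 72 h it ran from 4.57 to 4.69 and from 3.79 to 3.96. With no overlap, the fit cannot separate the ratio from pressure at these 2 times. The part of RNA quality in the shoot differences was not tested.

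**Figure D2:**
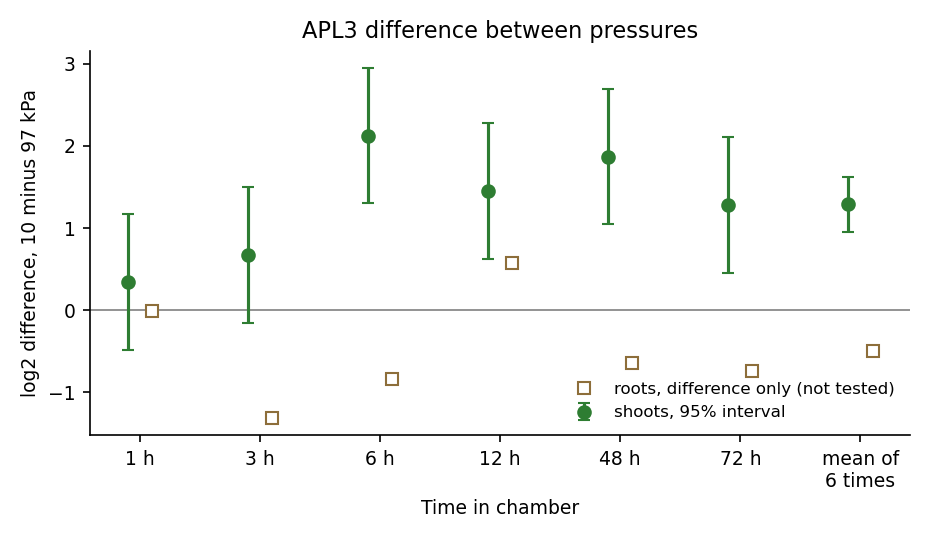
Log2 difference in APL3 between 10 and 97 kPa at each time and averaged over the 6 times, with filled points and 95% intervals for shoots (limma) and open squares for the untested differences in roots. The shoot intervals exclude 0 at 6, 12, 48 and 72 h, and 5 of the 6 root values lie below 0.

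Across time, APL3 rose within the 10 kPa shoots. The mean of 6 and 12 h was above that of 1 and 3 h by 1.19 on the log2 scale (SE 0.29, adjusted p = 0.00908, with 5.15% of probe sets called), and that of 48 and 72 h by 1.43 (SE 0.29, adjusted p = 0.000207, with 30.5% called). The earlier contrast lost its call without replicate 2 (1.07, adjusted p = 0.119) or replicate 3 (1.09, adjusted p = 0.137) of the 10 kPa shoots. From 6 and 12 h to 48 and 72 h the 10 kPa difference was 0.24 (interval on the fold scale 0.79 to 1.77, adjusted p = 0.604, with 19.7% called). In the 97 kPa shoots the mean of 48 and 72 h was 0.45 above that of 6 and 12 h (adjusted p = 0.335, with 11% called).

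The change of the pressure difference itself was less well resolved. The difference at 6 and 12 h exceeded that at 1 and 3 h by 1.28 (SE 0.40), but adjusted p was 0.128 over all probe sets, of which 1.01% were called. An effect that was called from 6 h and not before is therefore not shown to differ between these times. From 6 and 12 h to 48 and 72 h the pressure difference moved by -0.21 (SE 0.40, adjusted p = 0.787, with 10.8% called).

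In roots APL3 was near the bottom of the arrays' range. Signals ran from 3.06 to 86.5 at 10 kPa with a median of 12.7, and from 4.09 to 275 at 97 kPa with a median of 20.9. Only 2 of 36 root arrays reached the 40th percentile, so the probe set was not tested in roots and the values are descriptive. The 3 arrays of a root group often spread more widely than the groups did: at 72 h and 97 kPa they were 55.2, 275 and 6.84, and at 1 h and 10 kPa 86.5, 25.1 and 4.15.

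At 1 h the 97 kPa roots gave 43.0, 12.9 and 29.0, within the range of the 10 kPa values. At 3 h they gave 7.73, 21.1 and 89.3 against 3.29, 5.16 and 9.87 at 10 kPa, so that only 1 pair of arrays was out of order. At 6 h the values were 95.4, 14.2 and 22.4 at 97 kPa and 3.06, 6.41 and 62.8 at 10 kPa. These groups overlapped at each of the 3 times, with a 10 kPa array above at least 1 array at 97 kPa.

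At 12 h both root groups were low, with 6.42, 4.09 and 9.42 at 97 kPa and 3.40, 60.8 and 5.03 at 10 kPa. At 48 h the values were 7.02, 20.6 and 185 at 97 kPa and 13.5, 42.5 and 12.0 at 10 kPa, and at 72 h the 10 kPa roots gave 48.1, 18.1 and 31.4. A single array thus set the higher mean at 12 h (60.8 at 10 kPa), at 48 h (185 at 97 kPa) and at 72 h (275 at 97 kPa).

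The log2 differences of 10 minus 97 kPa in roots were -0.01, -1.31, -0.84, 0.57, -0.64 and -0.74 from 1 to 72 h, and -0.49 over the 6 times. Without the filter their adjusted p ran from 0.646 to 0.999 at single times and was 0.407 for the mean. Within the run of 72 h that holds both pressures, 1 root array gave 18.1 at 10 kPa and 1 gave 275 at 97 kPa. Signals this low carry little information on a change in either direction, and no rise or fall of APL3 in roots was detectable.

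As a mean over the 6 times, the pressure difference came out lower in roots than in shoots, though the test called it at no single time. Over the 6 times the root minus shoot difference of the pressure effects was -1.78 on the log2 scale (SE 0.43, interval -2.65 to -0.92, adjusted p = 0.00113, limma over all 72 arrays), a contrast that called 25.9% of the 17901 probe sets tested. APL3 passed the filter of that fit almost only through its shoot arrays, and without a filter the adjusted p was 0.00136. The contrast includes root signals near the bottom of the range, so its size depends on the pseudocount: it was -2.15 with none (values floored at 1.87) and -1.25 with 50.8, and the test does not show a fall in roots. At single times the value was -0.35, -1.98, -2.96, -0.88, -2.51 and -2.02, each with SE 1.06, and none was called, with adjusted p of 0.950, 0.457, 0.0837, 0.759, 0.131 and 0.271 where 1.69%, 1.84%, 6.31%, 5.19%, 9.29% and 6.64% of probe sets were. With the 3′ to 5′ ratio as a covariate the mean contrast was -1.63 with adjusted p = 0.0707.

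The level of APL3 was also lower in roots, with root minus shoot values of -1.17 on the log2 scale at 97 kPa (SE 0.31, adjusted p = 0.000531, where 79.9% of probe sets differed between the tissues) and -2.95 at 10 kPa (adjusted p = 4.45e-13, where 78.6% differed). With root signals this low the direction is better held than the size, which ran from -1.64 to -0.54 at 97 kPa and from -3.79 to -1.80 at 10 kPa between no pseudocount and one of 50.8. The 3′ to 5′ ratio of GAPDH moves with tissue, at 76.0 to 694 as a group mean in roots and 12.8 to 83.5 in shoots. With the covariate the tissue difference at 97 kPa was -1.56 with adjusted p = 0.330, and that at 10 kPa was -3.20 with adjusted p = 0.000413.

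Set in order of their mean log2 signal, the 12 root groups were the 12 lowest and the 12 shoot groups the highest. The order ran from 3.88 ± 0.32 (10 kPa roots at 3 h, log2 of signal plus pseudocount, SD, n = 3) to 6.04 for the 97 kPa roots at 72 h, and then from 6.09 for the 97 kPa shoots at 6 h to 8.22 for the 10 kPa shoots at 48 h. The lowest shoot groups were all at 97 kPa, followed by the 10 kPa shoots at 1 h (6.45), the 97 kPa shoots at 72 h (6.93) and the 10 kPa shoots at 3 h (7.11). The last 4 places went to 10 kPa shoots at 12 h (7.74), 72 h (8.21), 6 h (8.21) and 48 h (8.22), of which the last 3 differed by far less than the SD within any of them. Each group overlapped its next neighbour in this order, so no step between neighbours exceeded the spread of the arrays. Shoot signals ran from 37.2 to 146 with a median of 77.5 at 97 kPa and from 56.9 to 557 with a median of 209 at 10 kPa, and those values lay between the 19.6th and 46.3rd and between the 32.8th and 76.7th percentile of their arrays.

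Of the 6 genes of ADP-glucose pyrophosphorylase on the list, only APL3 and APL4 had a named probe set. APL1, APL2 and the small subunits were not analysed here. APL4, another large subunit, gave 144, 104 and 128 at 10 kPa and 66.3, 78.4 and 74.9 at 97 kPa in shoots at 6 h. At 12 h it gave 106, 123 and 145 against 51.2, 77.5 and 66.9. At 48 h it gave 126, 164 and 199.7 against 115, 107 and 108. The groups did not overlap at these 3 times, nor at 1 h, when all 3 arrays at 10 kPa were higher for 13.4% of probe sets.

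At 3 h and 72 h the APL4 groups overlapped, and 1 of the 10 kPa arrays at 3 h was at 11.2. Its log2 differences from 1 to 72 h were 0.90, -0.21, 0.70, 0.86, 0.51 and -0.04, and none passed the test at a single time (adjusted p from 0.259 to 0.962). Over the 6 times APL4 was higher by 0.45 (SE 0.17, adjusted p = 0.0374). It was not tested in roots, where its group means ran from 15.3 to 81.2. Its deviations from the group means followed those of APL3 over the 36 shoot arrays with r = 0.42, at the edge of the range of -0.41 to 0.41 that holds the middle 90% of all named genes, and these arrays share their chambers and runs.

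Of 16 other genes of starch synthesis 5 were tested in shoots, and 1 was higher and none lower over the 6 times, with a median log2 difference of 0.04 against 0.01 for all probe sets. That share of called members is near the 18.6% of all probe sets that were higher. The gene called higher over the 6 times was SBE2.2, a starch branching enzyme, which makes the branch points of amylopectin. Its signals at 6 h were 2269, 2117 and 2426 at 10 kPa and 899, 854 and 915 at 97 kPa, with no overlap and little spread. The log2 difference was 1.34 at 6 h (adjusted p = 3.51e-05), 1.05 at 12 h (adjusted p = 0.00131), 0.31 at 48 h (adjusted p = 0.318) and 0.64 at 72 h (adjusted p = 0.0305). SBE2.2 and APL3 were thus both called at 6, 12 and 72 h. Their arrays differed at the other times. At 1 and 3 h the SBE2.2 groups were separated upwards, as were 13.4% and 14.5% of probe sets, but not called, while the APL3 groups overlapped. At 48 h the SBE2.2 groups overlapped and the APL3 groups did not. Over 36 shoot arrays the deviations of SBE2.2 from its group means followed those of APL3 with r = 0.67. The 5th to 95th percentile of all named genes was -0.41 to 0.41. Both genes spread widely in the 10 kPa shoots at 48 h, with 551, 836 and 1595 for SBE2.2 and 151, 286 and 557 for APL3. The APL3 deviations also had r = -0.32 with the 3′ to 5′ ratio, and these arrays share their chambers and runs. The remaining 4 genes, AT5G65685, AT5G39790, AT1G27070 and AT5G03420, had mean differences of 0.13, 0.04, 0.00 and -0.12 that were not called. At 48 h alone, 1 of these 4 was called higher, where 10.4% of probe sets were. In roots none of the 5 was called over the 6 times, where 31.3% of probe sets were.

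Of 23 genes of starch breakdown 3 were tested, and 2 were higher in shoots over the 6 times, beside 18.6% of all probe sets. DPE1, the plastid disproportionating enzyme that rearranges the glucans left after starch is degraded, was higher by 0.60 at 6 h, 0.87 at 48 h and 0.80 at 72 h (adjusted p = 0.0268, 0.000655 and 0.00176). PWD, a dikinase that phosphorylates starch before it is degraded, was higher by 0.60 at 6 h (adjusted p = 0.0367) and by 0.28 over the 6 times (adjusted p = 0.00490). AMY1, an alpha-amylase, differed by 0.07 over the 6 times and was not called.

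None of the 4 genes on the list of plastid import of glucose 6-phosphate and ATP had a named probe set. Of 21 sucrose genes 3 were tested, with 1 higher and 1 lower over the 6 times in shoots, where 18.6% and 17.6% of all probe sets were. ATSPS4F, a sucrose-phosphate synthase, fell by 0.98 at 48 h and by 1.09 at 72 h (adjusted p = 0.00596 and 0.00287). AT1G62660 was higher at 1 h (0.75, adjusted p = 0.0168) and at 3 h (0.67, adjusted p = 0.0314), and lower at 6 h (-0.88, adjusted p = 0.00160). AT2G35840 was higher at 12 h by 0.56 (adjusted p = 0.0294). SWEET11, which exports sucrose from phloem parenchyma cells of the leaf, was the 1 sugar transporter tested of 7, and it was lower by 0.96 at 6 h and 1.18 at 48 h (log2 -0.96 and -1.18, adjusted p = 0.00521 and 0.000364). SWEET11 also fell in roots over the 6 times, by 1.37 (adjusted p = 1.33e-11), where 18.2% of probe sets were lower.

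Genes known in Arabidopsis to rise with sugar were higher in shoots. Of 11 such genes 3 were tested, APL4 among them, and all 3 were higher over the 6 times (18.6% of probe sets were), with a median difference of 1.14. DFR, which reduces dihydroflavonols on the way to anthocyanins, gave 529, 362 and 757 at 10 kPa and 199.6, 206 and 169 at 97 kPa at 6 h, and 1811, 1496 and 1178 against 382, 289 and 257 at 72 h. Its groups did not overlap from 3 h onwards (14.5% of probe sets were separated upwards at 3 h), and its log2 differences from 1 to 72 h were 0.53, 1.15, 1.42, 2.16, 1.44 and 2.24, of which all but the first were called. UF3GT, which adds xylose to anthocyanins, was called at 12 h (1.77, adjusted p = 0.0122) and at 72 h (2.05, adjusted p = 0.00137). Both of these genes belong to anthocyanin synthesis, so the list as tested is mainly a pair of pigment genes beside APL4. In roots only 1 gene of the list was tested. Its difference over the 6 times was 0.08 and was not called, where 13.1% of probe sets were higher. The DFR groups overlapped in roots at each of the 6 times.

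Genes known to fall with sugar were lower. Of 15 on that list 3 were tested in shoots, and all 3 were lower over the 6 times, with a median of -1.03, where 17.6% of probe sets were lower. At single times from 1 to 72 h, 1, 1, 3, 2, 2 and 1 of the 3 were called lower, against 2.1%, 2.86%, 5.92%, 3.59%, 13.4% and 10.5% of probe sets. AKINBETA1, a beta subunit of the SnRK1 kinase complex that acts when energy is short, gave 243, 262 and 211 at 10 kPa and 792, 862 and 1468 at 97 kPa at 6 h. Its 10 kPa arrays lay below its 97 kPa arrays at each of the 6 times, with log2 differences from -1.22 at 3 h to -2.77 at 48 h, and it was called at each. From 1 to 72 h, 10.6%, 14.3%, 14.5%, 12.3%, 15.3% and 17.3% of probe sets were separated downwards, and 2.1%, 2.86%, 5.92%, 3.59%, 13.4% and 10.5% were called lower. In roots the AKINBETA1 differences from 1 to 72 h were 0.38, 0.27, 0.43, 0.19, -0.48 and -0.65, so that their mean of 0.02 (adjusted p = 0.820) joins values above and below 0. At 72 h the root difference was called (adjusted p = 0.00912, where 4.63% of probe sets were lower), with 928, 927 and 949 at 10 kPa and 1416, 1466 and 1536 at 97 kPa. MCCA and MCCB, the 2 subunits of the carboxylase that breaks down leucine, were lower over the 6 times by 1.03 and 0.35 (log2 -1.03 and -0.35, adjusted p = 2.43e-07 and 0.000198). Both were also lower in roots over the 6 times, at -0.57 and -0.45 (adjusted p = 5.66e-05 and 9.17e-05), so that 2 of the 3 tested genes were lower there, with a median of -0.45 where 18.2% of probe sets were lower.

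**Figure D3:**
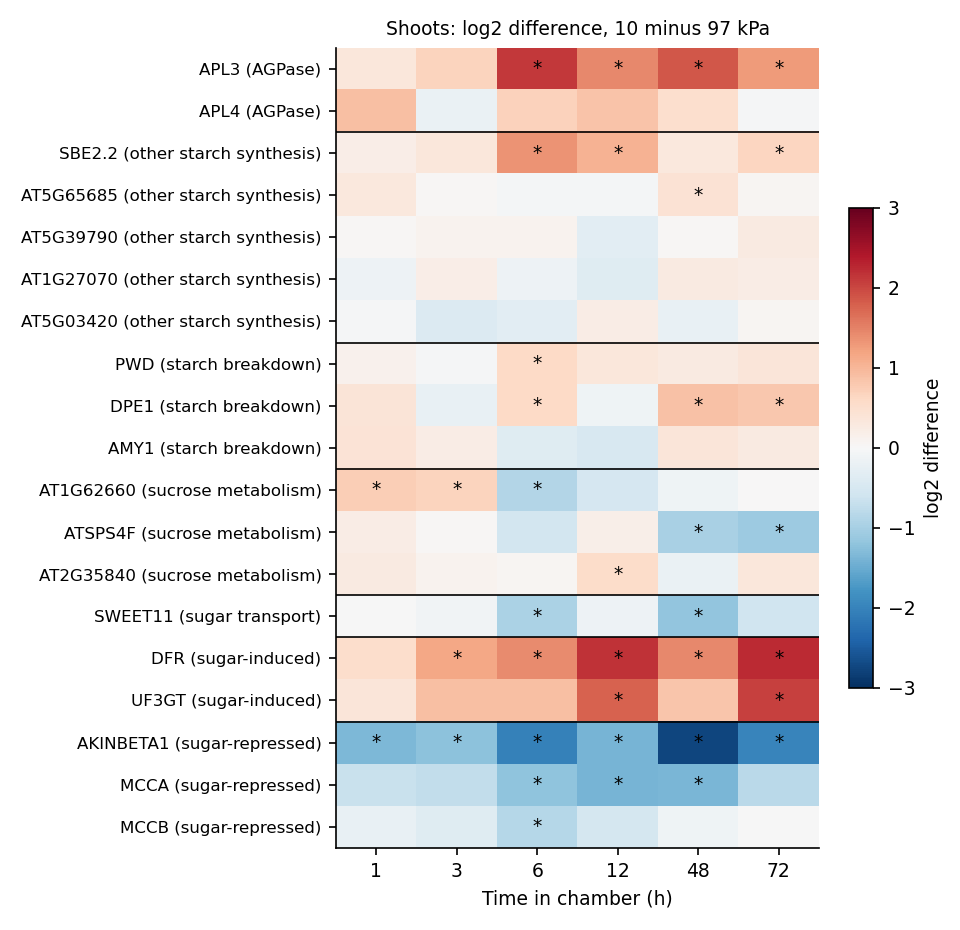
Log2 difference of 10 minus 97 kPa in shoots at each time (colour scale, red higher and blue lower at 10 kPa) for APL3 and the tested genes of the starch, sucrose and sugar-response lists, with a star where the adjusted p was below 0.05. APL3 is starred at 6, 12, 48 and 72 h, SBE2.2 at 6, 12 and 72 h, and AKINBETA1 at all 6 times.

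The core low-oxygen genes, whose transcripts rise in oxygen-poor Arabidopsis tissues, were followed beside APL3. Of 25 on the list 15 were tested, and in shoots 14, 10, 11, 8, 6 and 5 were higher from 1 to 72 h, where 2.27%, 2.54%, 5.78%, 3.82%, 10.4% and 9.33% of probe sets were. At 48 and 72 h 2 and 5 of them were lower, where 13.4% and 10.5% of probe sets were. Their median log2 difference was 2.52 at 1 h, 1.52 at 6 h, 0.28 at 48 h and 0.07 at 72 h. The APL3 values at the same times were 0.34, 2.12, 1.87 and 1.28. In the 97 kPa shoots all 15 low-oxygen genes had a higher mean signal at 72 h than at 1 h, such as 6905 against 1227 for AT4G10270. At 10 kPa they moved both ways, with AT3G03270 at 5788 against 2108 and PDC2 at 523 against 1502. The falling median therefore does not by itself show a fall at 10 kPa. In roots all 15 were higher over the 6 times, with a median of 3.30, where 13.1% of probe sets were higher and APL3 differed by -0.49. No gene of the abscisic acid list (16 genes) or of the phosphate starvation list (12 genes) had a named probe set.

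The genes whose profile was most like that of APL3 over all 24 group means were COR15B (Pearson r = 0.94), AT2G29670 (0.93), COR15A (0.92), AT1G70270 (0.92) and AT1G75280 (0.92), of 10005 named genes compared. COR15A and COR15B encode proteins of the chloroplast stroma that accumulate in the cold and on drying. All 5 had a higher signal in shoots than in roots, and in shoots their differences between pressures over the 6 times were 0.62 to 2.03, which the choice of genes by likeness to APL3 partly fixes. The most opposite profiles were those of OS9 (-0.93), MAB1 (-0.92), AT5G19970 (-0.91), AT4G32680 (-0.91) and AT1G26530 (-0.91), all higher in roots. The 24 means join 2 tissues that differ in APL3 level, and within the shoots alone COR15B had r = 0.96.

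Within the 12 shoot groups the most alike were AT5G64670 (r = 0.98), BETA-VPE (0.98), AT2G35480 (0.97), SHN3 (0.97) and COR15B (0.96), of 8679 compared, and 66 genes had r over 0.9. The group means share arrays, chambers and runs, so these values are descriptions. BETA-VPE, a vacuolar cysteine protease that processes seed storage proteins, gave 393, 457 and 544 at 10 kPa and 94.3, 65.9 and 56.7 at 97 kPa at 6 h, and 546, 714 and 564 against 125, 85.5 and 136 at 72 h. Like APL3 in shoots, it overlapped between pressures at 1 h and was separated at 6, 12, 48 and 72 h, and it was also separated at 3 h. From 3 to 72 h, 14.5%, 17%, 13.9%, 12% and 15.7% of probe sets were separated upwards in shoots. In roots, where APL3 was too low for a test, BETA-VPE gave 797, 996 and 1277 at 10 kPa and 632, 761 and 314 at 97 kPa at 6 h. At 72 h the BETA-VPE root signals were 1143, 1875 and 1261 against 727, 766 and 624. Its mean signal was 871 in roots, against 382 and 74.0 in shoots at 10 and 97 kPa. In shoots BETA-VPE was higher by 1.96 over the 6 times (SE 0.15), and SHN3, a transcription factor of cuticle formation, by 1.85 (SE 0.30). The choice of these 5 genes by likeness to APL3 in shoots partly fixes their shoot differences and separations, so these are descriptions too.

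AT5G64670 and AT2G35480 had the same shape with a smaller amplitude, at 0.27 and 0.45 over the 6 times. COR15B gave 1397, 1314 and 1564 at 10 kPa and 177, 359.7 and 471 at 97 kPa at 6 h. The likeness of the array deviations was uneven among the 5: over 36 shoot arrays r was 0.66 for BETA-VPE, 0.34 for AT2G35480, 0.24 for AT5G64670, 0.17 for SHN3 and -0.07 for COR15B. The 5th to 95th percentile of all named genes was -0.41 to 0.41, and of these genes only BETA-VPE lay outside it. In the 10 kPa shoots at 48 h BETA-VPE gave 372, 536 and 1074, on the same arrays as 151, 286 and 557 for APL3. These arrays share their chambers and runs. COR15B was like APL3 in its group means and not in these deviations.

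**Figure D4:**
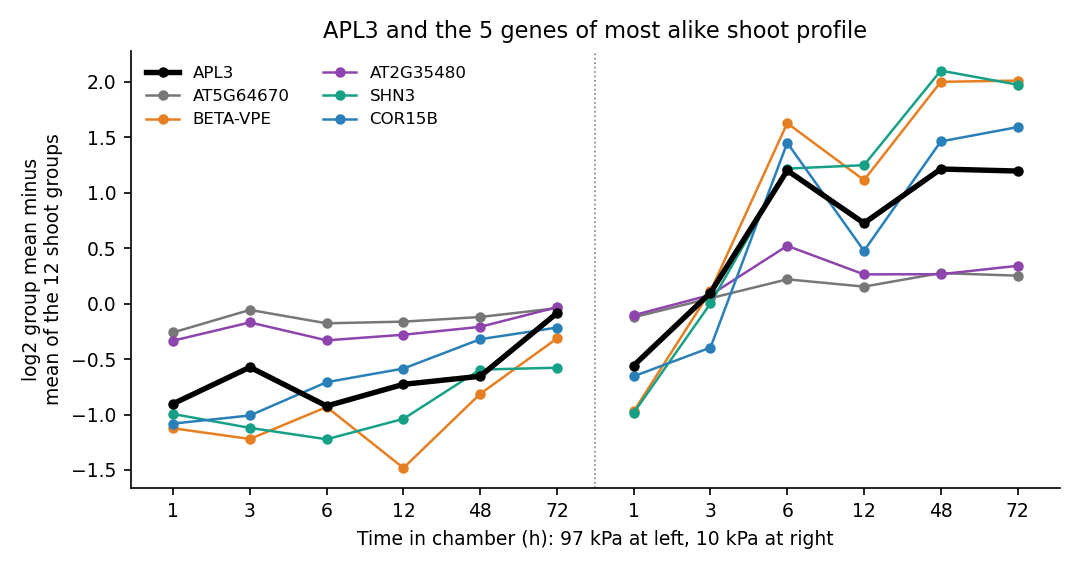
Mean log2 signal of each shoot group minus the gene's mean over the 12 shoot groups, for APL3 (black) and the 5 genes of highest correlation with it in shoots, by hours at 97 kPa (left) and at 10 kPa (right), each point a mean of 3 arrays. All 6 genes are highest at 10 kPa from 6 h onwards, and AT5G64670 and AT2G35480 have the smallest amplitude.

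In roots the most alike of 9289 genes over 12 groups were Cpn60beta4 (0.95), AT1G70900 (0.91), AT1G33660 (0.88), AT1G77230 (0.88) and AT1G07440 (0.87). Cpn60beta4 is a subunit of the plastid chaperonin. Because APL3 was mostly below the 40th percentile in roots, and single arrays set several of its root means, this order describes low signals.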

How the data were processed

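The deposited values are linear signal intensities, which the authors obtained with MAS5 in Affymetrix Expression Console according to the names in the submitters' processing notes, with no version or setting stated there. The table holds 22810 probe sets, 64 of them controls, and the 2% trimmed mean of each array was 500. In the annotation 13513 probe sets have 1 gene, 503 have several and 8794 are not listed. Of 177 genes in 13 lists, 45 had a named probe set. Arrays carry no read depth, so the 3 arrays per group limit the precision.

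To each deposited intensity 8.90 was added, the 10th percentile of the whole table, before taking log2. Tests covered probe sets that 3 or more arrays placed at or above their own 40th percentile: 16667 for roots, 15794 for shoots and 17901 for the tissues together. limma 3.58.1 (R 4.3.3; lmFit, then eBayes with trend) fitted the group means, once per tissue with 24 residual degrees of freedom and once over all 72 arrays with 48. Tests were two-sided, and a call is a Benjamini-Hochberg adjusted p below 0.05. The procedure was tested on simulated data.

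Named genes are APL3, tested members of its own enzyme list, up to 4 members per list and tissue with the largest mean pressure effect (over both tissues these are all 5 tested members of the starch synthesis list), and the 5 most and 5 least alike in group means by Pearson r. The gene, lists and tests were chosen with earlier results of these data known. Alternatives were quantile normalization, other pseudocounts and filters, no trend, a replicate block, leaving out arrays, only the 6 arrays of a comparison, the tube as a random block and a 3′ to 5′ covariate. Contrasts of the shoot pressure effect between times, the contrast of 48 and 72 h with 6 and 12 h at 10 kPa, and the run of array numbers as a block were added after seeing the data. Some label fields give 101 kPa for the control and others 97 kPa, and 97 kPa is used.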

Additional observations from a re-analysis of the deposited data

Results flagged for a closer look

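Over the 6 times the root minus shoot difference of the APL3 pressure effects was -1.78 on the log2 scale (SE 0.43, adjusted p = 0.00113, limma, and 0.00136 without a filter), past the test's threshold. The mean pressure effect was 1.29 in shoots, where it was positive at all 6 times, and -0.49 in roots, where it was positive at 12 h alone. The root effect was not tested by itself: root signals were near the bottom of the range, and leaving out 1 array turned its sign at 1, 12, 48 and 72 h. The size of the contrast therefore depends on the pseudocount, from -2.15 to -1.25. The 3′ to 5′ ratio also differs between the tissues, and with it as a covariate the value was -1.63 with adjusted p = 0.0707. The part of RNA quality in this difference was not tested beyond that fit.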

How the results depend on the processing

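The shoot calls at 6 and 48 h held under every other normalization, pseudocount, filter and variance setting, the covariate, the replicate block and each array left out, and those at 12 and 72 h under each that left out no array of their groups. None of the 4 held with the run of array numbers as a block, where the log2 differences at 6, 12, 48 and 72 h were 2.97, 2.3, 2.71 and 1.84 in shoots and, untested, -4.83, -3.42, -4.63 and -3.40 in roots. Without the 4 arrays numbered apart, the shoot value at 72 h was 1.00 (adjusted p = 0.184). With each array left out in turn, the shoot values ran from 1.14 to 1.84 at 12 h and from 1.01 to 1.53 at 72 h. For 6 and 12 h minus 1 and 3 h at 10 kPa they ran from 1.07 to 1.41. There the arrays of 1 replicate number were left out together at all of these times. With single arrays left out, the root minus shoot effects ran from -1.08 to 0.36 at 1 h, from -2.55 to -1.27 at 3 h and from -3.77 to -2.31 at 6 h. They ran from -1.69 to -0.43 at 12 h, from -3.26 to -1.45 at 48 h and from -3.05 to -0.96 at 72 h. The untested root effects ran from -0.73 to 0.70 at 1 h, from -0.23 to 1.02 at 12 h, from -1.39 to 0.41 at 48 h and from -1.77 to 0.32 at 72 h, and the shoot effect at 1 h from 0.09 to 0.55. Of the root minus shoot effects, that at 1 h turned its sign without replicate 3 of the 10 kPa roots, and that at 6 h was called without the same array (adjusted p = 0.0273). A pseudocount of 50.8 gave called root minus shoot effects at 6 h (-1.96, adjusted p = 0.0317) and 48 h (-1.91, adjusted p = 0.0287). With the 3′ to 5′ covariate the shoot pressure effect of 48 and 72 h minus that of 6 and 12 h was 0.25 (adjusted p = 0.838), the mean root minus shoot effect -1.63 (adjusted p = 0.0707) and the tissue difference at 97 kPa -1.56 (adjusted p = 0.330). Calls over all probe sets moved by over 1.5 times with the covariate in shoots at 48 h (3750 to 488) and 72 h (3130 to 998), with only the 6 arrays of a comparison in shoots at 3 h (853 to 1475) and 48 h (3750 to 1152), and with the run as a block at 6, 12, 48 and 72 h in shoots (1848 to 89, 1171 to 43, 3750 to 140 and 3130 to 505). The cause was not tested. Same-numbered arrays did not deviate together (36 pairs, r from -0.03 to 0.05, 16 of 36 best with their own number), and the replicate block changed no APL3 call (shoots at 6 h 2.12, adjusted p = 0.000428; at 12, 48 and 72 h adjusted p = 0.0221, 0.00102 and 0.0238). In roots, the position of APL3 near the bottom of the signal range limits what could be detected.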
